A study of Mus musculus with 20 samples.

Results

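The libraries compared here were those of melb-a cells carrying either of the lentiviral hairpins against Hira, shHIRA II and shHIRA I. They were taken by the column names of the authors' gene table, with 4 libraries for each hairpin, which made 8 of the 20 libraries of the study. The question of the comparison was which genes and gene groups part between hairpins aimed at 1 gene, and where the groups without a Hira hairpin lie for each. The melb-a line is an immortal, wild-type mouse melanoblast line, and melanoblasts are the unpigmented precursors of melanocytes. All 5 groups grew in medium with 10% serum, 10 ng/ml SCF (the ligand of the receptor Kit) and 40 pM Fgf2. Parental cells received no virus, whereas shLuciferase, shScramble, shHIRA I and shHIRA II cells were infected for 16 h with 8 µg/ml polybrene and selected with 1 µg/ml puromycin. The shLuciferase and shScramble groups served as control hairpins, and their mean is called the control hairpins below. Every library came from this 1 cell line, and the hairpin cells were selected populations, with a number of founding cells that no label gives. The submitters call the 4 libraries of each group independent replicates without saying how they were set up, so the p-values measure the spread between these samples, which may in part be technical.

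HIRA is a chaperone that, with UBN1, CABIN1 and ASF1A, places the histone variant H3.3 into chromatin outside of DNA replication. DAXX and ATRX form another route for H3.3, mainly to silent chromatin. In melanoblasts the transcription factors MITF, SOX10 and PAX3 act upstream of the enzymes that make melanin. A short hairpin RNA lowers its target through the RNA silencing machinery and can also lower transcripts with partly matching sites, so a pair of hairpins against 1 gene is the usual check on what follows from the target.

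Poly(A) RNA was sequenced, and totals ran from 14.95 to 19.88 M estimated counts in the shHIRA I libraries and from 16.05 to 17.84 M in the shHIRA II libraries, within the 14.95 to 20.67 M of the whole study. The melanoblast genes Mitf, Pax3, Kit, Dct, Pmel and Tyrp1 were present in every library. Ednrb, another melanoblast gene, was at 0 in 17 libraries, and mean Sox10 was only 0.0257 to 3.79 TPM (length-scaled transcript abundance) by group. Of the genes that define other cells, Epcam (epithelium) and Krt1 (keratinocytes) were at 0 in all 20 libraries, and Ptprc (leukocytes) did not exceed 0.128 TPM in any. Replicate 3 of shHIRA I stood apart: its mitochondrial mRNA made up 1.226% of counts, against 5.739 to 9.583% in the other shHIRA I libraries and 2.885 to 4.711% in shHIRA II. Over the groups the share was 5.70 ± 3.44% in shHIRA I and 4.19 ± 0.876% in shHIRA II (SD, n = 4 each), a difference that did not pass (two-sided exact permutation p = 0.486, adjusted 0.629 over 3 measures). Without this library the difference was −3.01 percentage points (exact permutation p = 0.0571, the smallest that 3 against 4 can give). List counts that moved by over 1.5 times, by at least 2 genes, without this library are given both ways for the lists described.

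Hira itself was higher in shHIRA II than in shHIRA I. Its level was 45.4, 26.6, 41.8 and 33.3 CPM (counts scaled to a common library size) in the shHIRA I libraries and 63.2, 63.3, 70.9 and 69.8 CPM in those of shHIRA II. The groups did not overlap, and the log2 fold change of 0.86 (SE 0.16) passed (adjusted p = 0.00096, edgeR's quasi-likelihood test with Benjamini-Hochberg adjustment over all genes, as for every adjusted p below unless another test is named). Control hairpin libraries ran from 63.7 to 89.8 CPM and parental libraries from 81.9 to 101 CPM. Against the control hairpins Hira was 1.05 lower on the log2 scale in shHIRA I (adjusted p = 5.15e-05), whereas the difference of −0.19 in shHIRA II did not pass (adjusted p = 0.306). A fall of the Hira transcript against the control hairpins was thus not detectable in shHIRA II, and its libraries are meant below by their label. Every shHIRA II library lay below every parental library in CPM, but in TPM the ranges overlapped (35.12 to 50.36 against 44.9 to 62.76). These are RNA levels and do not give the level of the protein. Mean TPM was 44.1 ± 7.14 in shHIRA II and 24.4 ± 5.85 in shHIRA I (SD, n = 4 each). The difference of 19.7 had a two-sided exact permutation p of 0.0286, the smallest that 4 against 4 libraries can give, and 0.0858 after adjustment over the 3 measures. Hira shares its locus and strand with the predicted gene Gm28539, so the split of reads between the pair is uncertain.

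Of 13541 genes tested, 2845 (21.0%) were called at an adjusted p under 0.05 between the Hira hairpins. In shHIRA II 1164 (8.60%) were higher and 1681 (12.4%) were lower, and these shares are the background for every gene group below. The median over all genes tested was −0.05. The 4 libraries of each hairpin did not overlap for 2487 genes (18.4% of those tested), and for 2024 (71.1%) of the genes called. Differences of at least 4-fold leaned to the lower side, with 93 genes (0.687%) higher and 229 (1.69%) lower. The same test between the control hairpins called 0 genes (0%), with 170 (1.26%) at an unadjusted p under 0.05 against 4556 (33.6%) between the Hira hairpins, and DESeq2 called 4 between the control hairpins. All groups share 1 estimate of the spread per gene in this fit, so the counts do not reflect the spread of each pair alone. With only the compared groups in the fit, 1088 genes were called between the Hira hairpins and 1 between the control hairpins. By root mean square over all genes, the log2 distance between group means was 0.77 for shHIRA I and shHIRA II and 0.36 for the control hairpins. Distances from shLuciferase, shScramble and parental cells were 0.70, 0.74 and 0.80 for shHIRA I and 0.82, 0.85 and 0.97 for shHIRA II. The group means of the hairpins against Hira were thus farther apart than shHIRA I was from shLuciferase or shScramble. Without replicate 3 of shHIRA I the count of genes called between the hairpins was 4430.

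**Figure D1:**
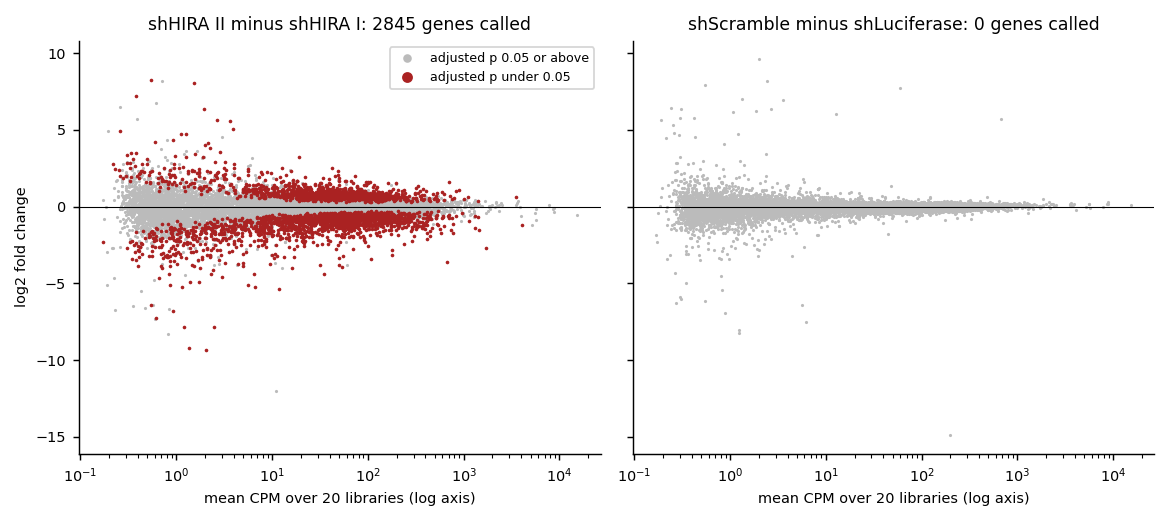
Each point is 1 of 13541 genes, with mean CPM over 20 libraries on a log axis against the log2 fold change; red points were called. The left panel, shHIRA II minus shHIRA I, holds 2845 called genes, and the right panel, shScramble minus shLuciferase, holds 0.

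The control groups mostly lay between the Hira hairpins or closer to shHIRA I. Among the 1164 genes higher in shHIRA II, the mean of the control hairpins fell between the hairpins for 789 (67.8%), below both for 246 (21.1%) and above both for 129 (11.1%). It was nearer to shHIRA I for 719 (61.8%). Among the 1681 lower genes it fell between the hairpins for 976 (58.1%) and above both for 520 (30.9%), and it was nearer to shHIRA I for 1101 (65.5%). Parental cells gave similar shares, with 57.7% of the higher and 56.3% of the lower genes between the hairpins. As medians over the higher genes, shHIRA I lay at −0.28 and shHIRA II at 0.51 from the control hairpins. Over the lower genes the medians were 0.28 and −0.74. These positions use the same libraries as the comparison that chose the genes and carry no test. By sign alone, the shifts from the control hairpins were most often opposite among the called genes, with the longer median shift in shHIRA II. Neither shift had to pass for this count. Choosing genes by a large difference between the hairpins itself favours a reference between them, so no conclusion is drawn from these positions.

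Promoters of genes that part the hairpins are shown here because 5 of the gene groups described below have a known regulatory motif. Each is the 250 bases before the gene's start in RefSeq (build GRCm38.p6), 5′ to 3′ on the gene's strand, and capitals mark the motif on either strand. The search took the 300 bases from 250 before to 50 after each start, and 9704 tested genes had an entry. Tyr and Tyrp1 carry CATGTG, the core of the M-box that MITF binds, which stood in 8 of 21 genes of the melanin list and in 10.7% of all. Their positions are chr7:87493513-87493762, minus strand, and chr4:80833963-80834212, plus strand.
Tyr: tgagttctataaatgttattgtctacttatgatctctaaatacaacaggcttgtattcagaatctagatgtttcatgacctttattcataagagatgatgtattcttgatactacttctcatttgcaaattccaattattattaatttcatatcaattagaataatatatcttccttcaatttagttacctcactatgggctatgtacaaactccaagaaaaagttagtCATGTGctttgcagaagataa
Tyrp1: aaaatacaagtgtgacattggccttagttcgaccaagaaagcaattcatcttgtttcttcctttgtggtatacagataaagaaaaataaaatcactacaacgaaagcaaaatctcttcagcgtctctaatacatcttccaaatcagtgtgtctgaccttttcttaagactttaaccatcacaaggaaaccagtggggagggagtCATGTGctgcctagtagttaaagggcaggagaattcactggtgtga
Igtp and Irgm1, both interferon-inducible GTPases, carry GAAA, any 2 bases and GAAA again, a form of the interferon-stimulated response element. It stood in 19 of 38 interferon-stimulated genes and in 3.68% of all, and its overlapping matches in Irgm1 form 1 run. Their positions are chr11:58199306-58199555, plus strand, and chr11:48871421-48871670, minus strand.
Igtp: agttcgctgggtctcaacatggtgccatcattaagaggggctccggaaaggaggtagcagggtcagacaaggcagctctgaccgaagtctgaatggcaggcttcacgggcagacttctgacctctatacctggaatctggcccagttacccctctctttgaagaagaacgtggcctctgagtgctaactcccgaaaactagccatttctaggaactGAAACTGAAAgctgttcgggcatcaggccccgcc
Irgm1: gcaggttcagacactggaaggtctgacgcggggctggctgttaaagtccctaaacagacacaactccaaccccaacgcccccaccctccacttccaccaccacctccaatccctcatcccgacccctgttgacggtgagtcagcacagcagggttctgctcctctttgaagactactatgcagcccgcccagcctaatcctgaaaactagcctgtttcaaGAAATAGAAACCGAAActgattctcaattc
Asns (asparagine synthetase) and Chac1 (which degrades glutathione) carry TGATGNAA, a form of the element bound by ATF4 with C/EBP partners. It stood in 8 of 22 genes of the Atf4 list and in 2.61% of all. Their positions are chr6:7693210-7693459, minus strand, and chr2:119350992-119351241, plus strand.
Asns: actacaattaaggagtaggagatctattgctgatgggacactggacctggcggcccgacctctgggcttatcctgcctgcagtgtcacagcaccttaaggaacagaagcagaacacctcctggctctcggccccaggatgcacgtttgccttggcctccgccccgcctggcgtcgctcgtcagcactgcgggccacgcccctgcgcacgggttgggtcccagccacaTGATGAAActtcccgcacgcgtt
Chac1: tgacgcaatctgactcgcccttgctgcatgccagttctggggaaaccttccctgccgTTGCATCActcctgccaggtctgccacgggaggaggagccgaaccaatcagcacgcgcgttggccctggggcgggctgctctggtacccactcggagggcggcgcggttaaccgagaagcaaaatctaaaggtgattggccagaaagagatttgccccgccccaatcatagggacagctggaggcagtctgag
Srxn1 (sulfiredoxin) carries TGANNNNGC, a loose form of the antioxidant response element of NRF2. It was in 12 of 16 NRF2 targets but also in 47.8% of all, so a marked stretch need not be such an element. Hmgcs1, an enzyme of cholesterol synthesis, carries TCACNCCAC, a form of the sterol response element that was in 1 of 17 cholesterol genes and in 1.40% of all. Their positions are chr2:152105274-152105523, plus strand, and chr13:119690101-119690350, plus strand.
Srxn1: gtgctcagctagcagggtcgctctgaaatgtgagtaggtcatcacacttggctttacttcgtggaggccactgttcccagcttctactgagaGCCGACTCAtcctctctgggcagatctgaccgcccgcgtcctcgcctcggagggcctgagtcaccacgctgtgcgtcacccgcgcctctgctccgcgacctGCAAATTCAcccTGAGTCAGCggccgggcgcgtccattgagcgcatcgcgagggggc
Hmgcs1: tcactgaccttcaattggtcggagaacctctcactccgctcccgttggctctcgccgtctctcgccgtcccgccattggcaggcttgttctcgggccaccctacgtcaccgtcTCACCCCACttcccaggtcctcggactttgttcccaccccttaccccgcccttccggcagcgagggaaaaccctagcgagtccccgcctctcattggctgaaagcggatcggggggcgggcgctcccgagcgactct
A match describes letters in a window and is not evidence of binding. Over all called genes the shares stayed near those of all genes: CATGTG stood in 12.5% of 1254 lower genes and the interferon element in 4.03% of 894 higher genes with an entry.

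Single genes that separated the hairpins most clearly did so in different ways with respect to the controls. Fam136a, which encodes a small mitochondrial protein, stood at 10.7, 12.6, 8.35 and 13.2 CPM in shHIRA I and at 69.4, 73.3, 55.4 and 57.0 CPM in shHIRA II. No library of one group came near the other, and the log2 fold change was 2.50 (SE 0.17, adjusted p = 7.33e-08). The controls sided with shHIRA II: means were 42.4 ± 7.32 CPM for shLuciferase, 45.0 ± 4.92 CPM for shScramble and 51.5 ± 4.90 CPM for parental cells, so that Fam136a was 1.96 lower than in the control hairpins in shHIRA I and 0.55 higher in shHIRA II (adjusted p = 3.15e-07 and 0.00477). Car6, a secreted carbonic anhydrase, stood at 1.93, 4.46, 4.38 and 10.9 CPM in shHIRA I and at 48.9, 48.6, 42.2 and 62.5 CPM in shHIRA II (log2 fold change 3.22, SE 0.36, adjusted p = 1.83e-05). Here the control hairpins, at 11.9 ± 1.29 and 13.8 ± 1.96 CPM, and parental cells, at 13.8 ± 4.64 CPM, lay between the hairpins. Both displacements of Car6 passed against the control hairpins (−1.24 in shHIRA I and 1.98 in shHIRA II). Of 9 carbonic anhydrases tested, Car13 was also higher in shHIRA II and Car8 was lower, with a log2 fold change of −2.02 (SE 0.20, adjusted p = 4.93e-06).

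Dcn, the collagen-binding proteoglycan decorin, stood at 41.8, 99.7, 70.1 and 75.2 CPM in shHIRA I and at 2.90, 5.93, 6.67 and 4.83 CPM in shHIRA II. The log2 fold change was −3.81 (SE 0.36, adjusted p = 4.14e-06), and the control hairpins, at 27.5 ± 9.62 and 29.0 ± 9.88 CPM, again lay between. Igfbp5, a secreted protein that binds insulin-like growth factors, stood at 4.39, 57.1, 7.94 and 5.89 CPM in shHIRA I and at 0.284, 0.403, 0.616 and 0.842 CPM in shHIRA II. The groups did not overlap (log2 fold change −5.11, SE 0.86, adjusted p = 0.000534), but replicate 2 of shHIRA I was far above its group, and without it the log2 fold change was −3.48. Zbp1, a sensor of Z-form nucleic acids that is itself inducible by interferon, stood at 0.470, 0.167, 0.684 and 0.247 CPM in shHIRA I and at 5.17, 7.03, 4.51 and 5.95 CPM in shHIRA II. Its log2 fold change was 3.85 (SE 0.62, adjusted p = 0.000368). Control hairpin libraries of Zbp1 were spread from 0.297 to 4.37 CPM and parental libraries from 0.155 to 0.308 CPM, so parental cells were at the level of shHIRA I and control hairpins lay between.

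**Figure D2:**
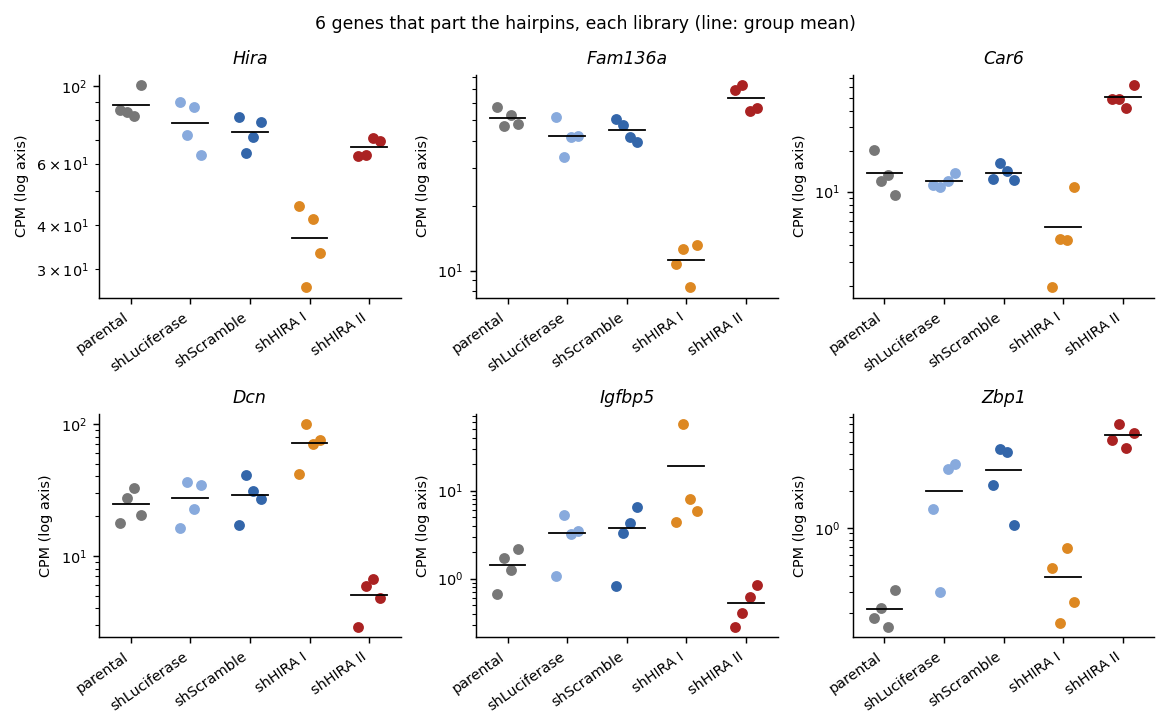
CPM on a log axis of Hira, Fam136a, Car6, Dcn, Igfbp5 and Zbp1 in each of the 20 libraries by group, with a line at the group mean. Fam136a was low in shHIRA I alone (8.35 to 13.2 CPM), whereas Car6 and Dcn had their control libraries between the Hira hairpins.

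Among called genes with a mean of at least 5 CPM and no overlap between the hairpins, the 12 with the lowest log2 fold changes held Igfbp5 and Dcn (above) and were mostly genes raised over the control hairpins in shHIRA I. Vcam1, an adhesion molecule of the cell surface, stood at 113, 219, 197 and 160 CPM in shHIRA I and at 8.47, 15.1, 16.5 and 8.98 CPM in shHIRA II (log2 fold change −3.81, SE 0.26, adjusted p = 7.33e-08). Its control hairpin means were 23.2 ± 5.85 and 22.4 ± 3.70 CPM and its parental mean 18.7 ± 2.34 CPM. Vcam1 was thus 2.92 above the control hairpins in shHIRA I and 0.89 below them in shHIRA II, and both passed (adjusted p = 4.39e-08 and 0.00399). C1s1, a protease of the complement cascade, stood at 46.0, 272, 71.1 and 103 CPM in shHIRA I against 4.84 to 7.29 CPM in shHIRA II (−4.39, adjusted p = 0.000397). The list went on with the surface proteins Ly6c1 (−4.58) and Ly6a (−4.13), Clca2 (−4.39), the phospholipase Plce1 (−3.77), Rprd2 (−3.73), which was at control level in shHIRA I, the elastin gene Eln (−3.66), the inositol transporter Slc5a3 (−3.40) and Cml3 (−3.36). Replicate 2 of shHIRA I was high for several: Ly6c1 was at 47.1 CPM there and at 1.15 to 5.14 CPM in the other 3 libraries. Without that library the log2 fold changes were −2.37 for Ly6c1 and −2.06 for Ly6a, neither of which then passed, −2.41 for Clca2, −2.34 for Slc5a3, −2.79 for Plce1 and −3.65 for C1s1. Eln was at −2.94 without replicate 3 of shHIRA I. Rprd2 did not pass without replicate 1 of shHIRA I (−2.71, adjusted p = 0.0934) or without replicate 1, 3 or 4 of shHIRA II (adjusted p = 0.0707, 0.0615 and 0.0659). Slc5a3 overlaps Mrps6 on the same strand, and Ly6 genes form a family of similar copies, so their read assignment is uncertain.

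The 12 highest log2 fold changes held genes raised in shHIRA II. Angptl6, a secreted angiopoietin-like protein, stood at 0.841 to 4.31 CPM in shHIRA I and at 10.2 to 14.6 CPM in shHIRA II (2.79, SE 0.43, adjusted p = 0.000248). Its control hairpin means were 2.22 ± 0.847 and 2.22 ± 0.331 CPM, at the level of shHIRA I. Etv1 (2.34) and Etv4 (2.50), ETS factors that act downstream of receptor and MAP kinase signalling, were both called, with adjusted p = 0.00117 and 0.0314. Etv4 ran from 1.62 to 21.9 CPM in shHIRA I and from 31.9 to 65.3 CPM in shHIRA II, and it did not pass when replicate 2, 3 or 4 of shHIRA I or replicate 1 or 4 of shHIRA II was left out. Lmbrd2 (5.58) and Chrnb2 (5.06) were detected in 1 shHIRA I library each, at 1.34 and 2.03 CPM, and at 8.29 to 24.6 and 11.4 to 28.0 CPM in shHIRA II. Neither passed without replicate 1 of shHIRA II or by DESeq2. Lmbrd2 also missed the threshold without replicate 4 of shHIRA I, and Chrnb2 without replicate 1 or 2 of shHIRA I or replicate 4 of shHIRA II. Their fitted sizes depend on the handling of zeros, and they overlap Skp2 and Adar on the opposite strand. The remainder were Col20a1 (2.49), Ermard (2.42), Chac1 (2.32), the death-effector gene Dedd2 (2.28) and Igfbp4 (2.24), with Car6 and Fam136a above.

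Pigment cell genes were lower in shHIRA II. Of 17 melanocyte regulators tested, 9 were lower and 1 higher (median −0.87, against −0.05 over all genes). Mitf, the master regulator of the lineage, stood at 308, 458, 212 and 579 CPM in shHIRA I and at 105, 153, 203 and 142 CPM in shHIRA II. Its lowest shHIRA I library, replicate 3, was just above the highest of shHIRA II, and the log2 fold change was −1.37 (SE 0.24, adjusted p = 0.000659). Control hairpin means of Mitf were 578 ± 49.5 and 544 ± 56.9 CPM and the parental mean 676 ± 70.5 CPM, so both Hira hairpins lay on the low side, with −0.53 for shHIRA I (adjusted p = 0.0809) and −1.90 for shHIRA II (adjusted p = 8.8e-06). Tfap2a, a partner of MITF at melanocyte genes, was 1.23 lower (adjusted p = 0.000303). Met, the receptor of hepatocyte growth factor, was 1.46 lower (adjusted p = 0.00918), and Kit, the receptor of SCF, chosen after its values were seen, was 1.28 lower (adjusted p = 0.00967), although for both genes replicate 3 of shHIRA I overlapped shHIRA II. Snai2, a neural crest factor, was also lower (−1.01), but its controls sided with shHIRA II, at 22.9 ± 6.89 and 18.2 ± 5.11 CPM against 31.9 to 60.5 CPM in shHIRA I. Tfe3, a relative of MITF, was the member that was higher (0.65, adjusted p = 0.00857). Sox10 differed by −1.07 (SE 1.62, adjusted p = 0.691), with most libraries of both hairpins near 0.

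Of 27 genes for melanin enzymes and melanosome proteins, 12 were lower and 2 higher in shHIRA II (median −0.49), and 0 were higher without replicate 1 or 2 of shHIRA I or replicate 2 or 4 of shHIRA II. Tyr, the enzyme that starts melanin synthesis, stood at 10.5, 52.9, 20.5 and 31.2 CPM in shHIRA I and at 3.47, 9.10, 9.39 and 5.89 CPM in shHIRA II (log2 fold change −2.04, SE 0.50, adjusted p = 0.00728). The control hairpins were far above both, at 187 ± 109 and 196 ± 77.5 CPM, while parental cells, at 34.3 ± 3.21 CPM, were within the range of shHIRA I. Tyrp1, an enzyme later in the same pathway, stood at 368, 2138, 588 and 1703 CPM in shHIRA I and at 85.5, 183, 286.5 and 173 CPM in shHIRA II. The log2 fold change was −2.72 (SE 0.49, adjusted p = 0.00089), and the shHIRA I level was not detectably below the control hairpins (−1.05, adjusted p = 0.0866), whereas shHIRA II lay 3.77 below them. Pmel, which builds the melanosome fibrils, was 1.75 lower with 1 overlapping library on each side, Slc24a5, an ion exchanger of melanosomes, 1.35 lower, and Bace2, the protease that processes Pmel, 2.46 lower. Gpnmb, a melanosome glycoprotein, was 0.55 above the control hairpins in shHIRA I and 0.97 below them in shHIRA II, and both passed (adjusted p = 0.0248 and 0.000447). Dct differed from these: it stood at 71.7, 217, 196 and 264 CPM in shHIRA I and at 131, 206, 178 and 130 CPM in shHIRA II (−0.22, SE 0.31, adjusted p = 0.669), while the hairpins were 2.51 and 2.72 below the control hairpins. The 12 lower melanin and melanosome genes had their control hairpin mean nearer to shHIRA I in most cases, 12 of the 14 called in either direction.

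**Figure D3:**
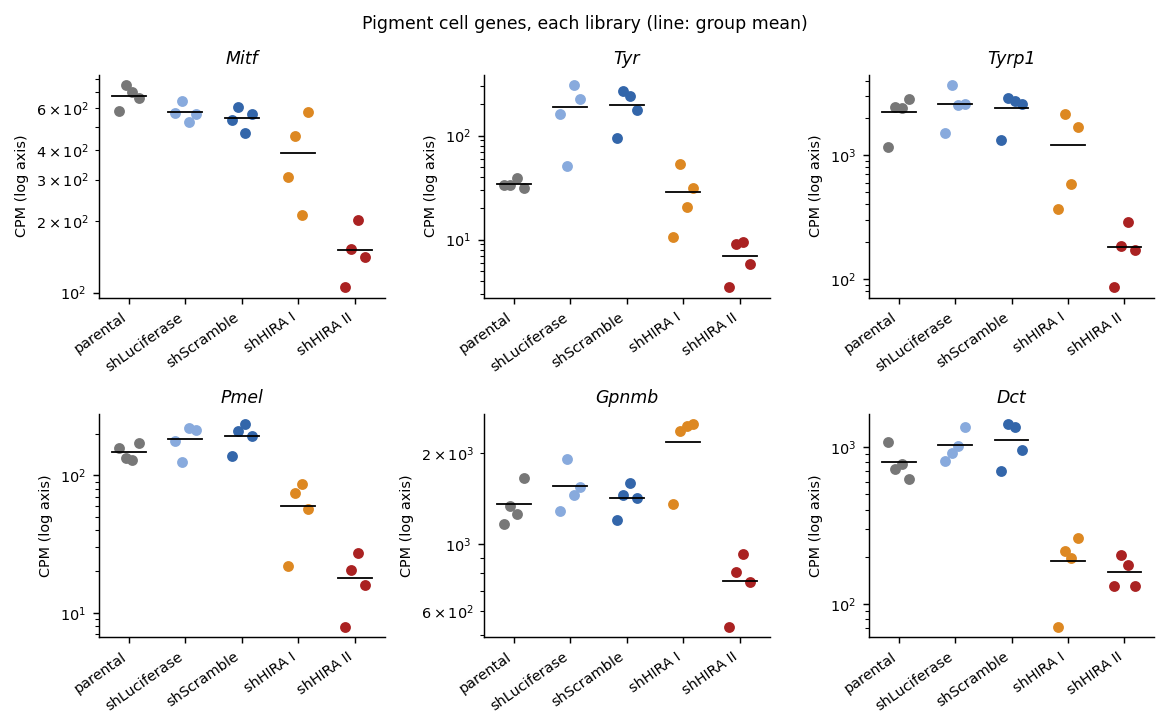
CPM on a log axis of Mitf, Tyr, Tyrp1, Pmel, Gpnmb and Dct in each of 20 libraries, with a line at the group mean. Tyrp1 in shHIRA II (85.5 to 286.5 CPM) lies below every shHIRA I library (368 to 2138 CPM), whereas Dct overlaps between the Hira hairpins and is below the control hairpins in both.

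Genes of the extracellular matrix were lower in shHIRA II and, for many, above the control hairpins in shHIRA I. Of 33 collagen and structural matrix genes tested, 15 were lower in shHIRA II and 0 higher (median −0.74). Against the control hairpins, of the same 33 genes, 19 were higher and 1 lower in shHIRA I, and 10 higher and 8 lower in shHIRA II. Over all genes the shares called against the control hairpins were 10.9% higher and 8.87% lower in shHIRA I, and 15.7% higher and 16.7% lower in shHIRA II. Both comparisons share their control libraries. Col1a2, a chain of type I collagen, stood at 32.1, 65.6, 122 and 49.6 CPM in shHIRA I and at 7.39, 17.3, 15.2 and 10.4 CPM in shHIRA II (−2.42, SE 0.32, adjusted p = 6.68e-05), with control hairpins at 29.6 ± 3.79 and 25.3 ± 1.80 CPM. It was above the control hairpins in shHIRA I (1.30) and below them in shHIRA II (−1.12). Col1a1, the other chain, stood at 7.47 to 25.5 CPM in shHIRA I and at 1.80 to 2.65 CPM in shHIRA II (−3.07, adjusted p = 0.00531), and here shHIRA II was not detectably different from the control hairpins (0.58, adjusted p = 0.482). Fbln1 (−1.33) and Lamb2 (−0.97), which encode fibulin and a laminin chain of basement membranes, were lower in shHIRA II, and shHIRA I did not differ detectably from the control hairpins. Of the 15 lower genes, the control hairpin mean was nearer to shHIRA II for 8 and to shHIRA I for 7.

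Of 31 matricellular and matrix-modifying genes, 10 were lower and 1 higher (median −0.78). Postn, a matricellular protein of remodelling tissue, stood at 112, 457, 66.2 and 162 CPM in shHIRA I and at 21.4, 20.2, 23.4 and 21.7 CPM in shHIRA II (−3.20, SE 0.58, adjusted p = 0.000852). The spread in shHIRA I was wide, and without its replicate 2 the log2 fold change was −2.39. Control hairpin means of Postn were 15.9 ± 16.2 and 11.9 ± 3.15 CPM and the parental mean 28.5 ± 9.33 CPM, at the level of shHIRA II. Sparc (−1.21), the crosslinking enzyme Loxl1 (−1.80) and the membrane protease Mmp14 (−0.98) followed that pattern, each above the control hairpins in shHIRA I (1.24, 1.97 and 0.86, all called) and not detectably different in shHIRA II. Spp1 (−1.01) and Nov (−2.18) were lower too, but below the control hairpins in shHIRA II. Of 17 integrin genes 5 were lower and 0 higher (8 lower without replicate 3 of shHIRA I, and 3 without replicate 3 or 4 of shHIRA II), among them Itgb8 (−1.75), which activates latent TGF-beta, and Itga9 (−1.51), a receptor of tenascin and osteopontin. A list of fibroblast and mesenchyme markers moved with these genes: 4 of 10 tested were lower and 0 higher, and their summed level was 178.8 to 326.2 CPM in shHIRA I, 61.0 to 96.3 CPM in shHIRA II and 76.6 to 192.3 CPM in the control hairpins. All 4 (Dcn, Col1a2, Col1a1 and Lum) also belong to the collagen list. Among the other markers of the list, mean Pdgfrb was 6.73 TPM in shHIRA I and 2.28 to 3.76 TPM in the other groups, mean Acta2 35.6 TPM against 9.80 to 24.5 TPM, mean Twist2 1.45 TPM against 0.219 to 0.737 TPM, and mean Mfap5 1.53 TPM against 0.527 to 0.691 TPM, each highest in shHIRA I. Mean Pdgfra was highest in parental cells, at 1.45 TPM, and 0.768 and 0.256 TPM in shHIRA I and shHIRA II. Mean Fap was 0.0851 TPM in shHIRA I and 0.0144 TPM in shHIRA II, below the 0.239 to 0.597 TPM of the other groups. Mean Lum in shHIRA I, at 0.981 TPM, was also below the 1.16 to 1.54 TPM of the groups without a Hira hairpin. Mean Prrx1 was at 0.0238 to 0.0928 TPM by group. Thy1 was at 0 in 17 libraries and Dpt in 19. Lum did not pass without replicate 2 of shHIRA I (−1.18, against −1.93 with it). In bulk RNA, more cells of a type and more RNA per cell cannot be told apart, and the part of such cells in the matrix result was not tested.

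**Figure D4:**
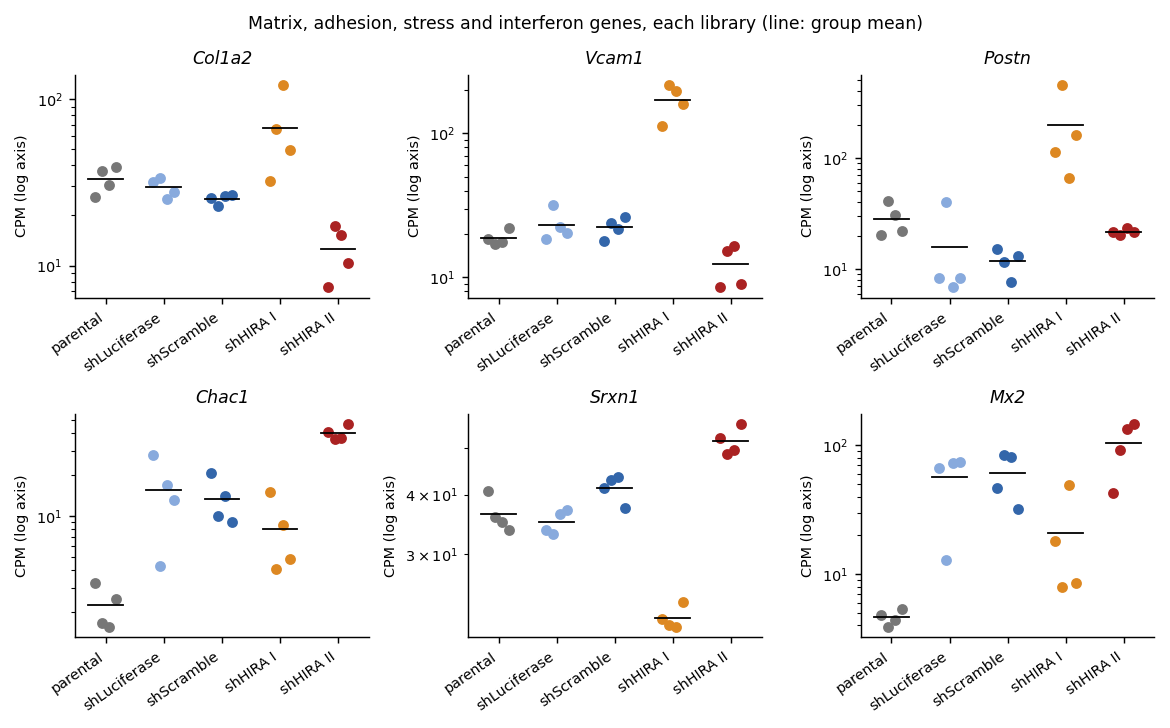
CPM on a log axis of Col1a2, Vcam1 and Postn (top) and Chac1, Srxn1 and Mx2 (bottom) in each of 20 libraries, with a line at the group mean. In the top row shHIRA I has the highest group mean, with Vcam1 at 113 to 219 CPM against 8.47 to 16.5 CPM in shHIRA II. The lowest Col1a2 library of shHIRA I is close to the control hairpins. In the bottom row shHIRA II has the higher mean of the Hira hairpins.

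Of 43 semaphorins, plexins, ephrins and their receptors, 16 were lower and 1 higher in shHIRA II (median −0.68). The ephrin receptor Ephb4 stood at 152, 190, 204 and 158 CPM in shHIRA I and at 65.1, 73.6, 86.0 and 72.6 CPM in shHIRA II, with control hairpins at 116 ± 13.5 and 114 ± 12.4 CPM between them (−1.24, SE 0.14, adjusted p = 1.74e-05). Epha4 (−2.50) and Plxna2 (−1.86) were raised in shHIRA I and at control level in shHIRA II. Sema6d (−2.76) was below the control hairpins in both, by 1.33 and 4.09. Of 15 genes of the insulin-like growth factor axis, 5 were lower and 2 higher. Igf1 (−2.82) and Pappa (−2.40), a protease that frees IGF from its binding proteins, were raised in shHIRA I against the control hairpins (2.63 and 2.10). Igfbp4, a further binding protein, was opposite to Igfbp5. It stood at 5.80, 3.79, 10.1 and 1.83 CPM in shHIRA I and at 24.5, 26.9, 21.8 and 28.2 CPM in shHIRA II (2.24, SE 0.42, adjusted p = 0.00115), with control hairpins at 2.78 ± 0.626 and 3.46 ± 1.94 CPM. Of 21 Wnt targets and feedback genes, 7 were lower and 1 higher, or 11 lower without replicate 3 of shHIRA I. The receptors Fzd1 (−1.10) and Fzd7 (−1.11) were lower, and the cyclin Ccnd1 was higher (1.06, adjusted p = 0.00194). Notch genes went both ways: of 15 tested, Notch3 (−2.17) and Hey2 (−1.46) were lower, Hes1 (1.65) and Hey1 (1.82) were higher, and the median was −0.09. The share of 13.3% each way was close to the 8.60% and 12.4% of all genes tested. Of 13 imprinted genes tested 5 were lower and 0 higher, with Peg10 (−1.43) and Peg3 (−2.07) among them.

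Genes of cholesterol synthesis were lower in shHIRA II, 9 of 25 with 0 higher (median −0.49). Insig1, which retains the sterol sensor in the endoplasmic reticulum and is itself a sterol-regulated gene, stood at 111, 164, 152 and 158 CPM in shHIRA I and at 48.7, 58.9, 67.5 and 55.3 CPM in shHIRA II (−1.34, SE 0.14, adjusted p = 6.37e-06). Its control hairpin means were 211 ± 26.5 and 224 ± 13.6 CPM, above both. The enzymes Dhcr7 (−1.29), Hmgcs1 (−1.28) and Cyp51 (−1.22) had control hairpin levels that did not differ detectably from shHIRA I and lay above shHIRA II. For all 9 lower genes the control hairpin mean was nearer to shHIRA I. Of 30 lysosomal genes 10 were lower and 1 higher (median −0.38; 6 lower without replicate 1 of shHIRA II), among them the proton pump subunits Atp6v1b2 (−0.77) and Atp6v0a1 (−0.60).

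Amino acid stress genes were higher in shHIRA II. Of 25 targets of Atf4, the factor that raises amino acid synthesis and transport when the integrated stress response is active, 9 were higher and 0 lower (median 0.69), and without replicate 3 of shHIRA I 14 were higher. Chac1 stood at 14.9, 4.07, 8.55 and 4.85 CPM in shHIRA I and at 41.2, 36.5, 36.9 and 46.9 CPM in shHIRA II (2.32, SE 0.46, adjusted p = 0.00172). Control hairpins, at 15.5 ± 9.83 and 13.4 ± 5.21 CPM, overlapped shHIRA I, and parental cells were lower than either, at 2.23 ± 0.796 CPM. Cebpg, a partner of ATF4, stood at 52.96, 39.1, 43.6 and 50.5 CPM in shHIRA I and at 144, 109, 120 and 160 CPM in shHIRA II (1.52, SE 0.18, adjusted p = 3.95e-05). The transfer RNA synthetase Wars (1.62), the serine enzyme Psph (1.30), the stress factor Ddit3 (1.13) and Sesn2 (1.04) were higher too. Asns was 1.31 higher (adjusted p = 0.0293) but was widely spread in shHIRA I, from 99.8 to 468 CPM, and missed the threshold without replicate 2 or 4 of shHIRA I or replicate 1 or 2 of shHIRA II. For all 9 higher genes the control hairpin mean was nearer to shHIRA I. Of 20 genes of the unfolded protein response 2 were higher and 0 lower, the chaperone Hspa5 by 0.42 and Atf6 by 0.62, and without replicate 3 of shHIRA I 4 were higher and 1 lower. With all libraries the share higher, 10.0%, was near the 8.60% of all genes tested.

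Targets of NRF2, the factor that responds to oxidants, were higher as well, 8 of 19 with 1 lower (median 0.68). Srxn1 was the most tightly separated, at 21.9, 21.3, 21.1 and 23.8 CPM in shHIRA I and at 52.5, 48.7, 49.7 and 56.3 CPM in shHIRA II (1.23, SE 0.11, adjusted p = 2.44e-06). Its control means, 35.1 ± 1.98 and 41.3 ± 2.69 CPM in the hairpins and 36.4 ± 3.05 CPM in parental cells, lay between, and both displacements from the control hairpins passed (−0.79 and 0.44). G6pdx (1.16), Me1 (0.68) and Taldo1 (0.55), enzymes that supply NADPH or pentoses, were below the control hairpins in shHIRA I by 0.61, 0.46 and 0.64. Hmox1, which degrades heme, was at control level in shHIRA I and 0.75 above it in shHIRA II. Nqo1, a further target of NRF2, was near the limit of detection in both hairpins (at most 1.10 CPM; adjusted p = 0.237).

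Output genes of MAP kinase signalling went both ways, with 8 of 31 higher and 4 lower in shHIRA II (median 0.31), and 5 higher without replicate 2 of shHIRA I. Dusp6, a phosphatase induced by ERK that acts back on it, stood at 39.1, 16.5, 18.1 and 49.8 CPM in shHIRA I and at 109, 65.6, 103 and 110 CPM in shHIRA II (1.65, SE 0.32, adjusted p = 0.00158). Control hairpins, at 75.1 ± 22.4 and 71.2 ± 9.69 CPM, did not differ detectably from shHIRA II and lay above shHIRA I. Ier2 (1.47) was higher, while Jun (−0.91) and the phosphatase Dusp10 (−1.95) were lower. Spry2 differed by 0.37 (SE 0.20, adjusted p = 0.209).

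Interferon-stimulated genes were on the whole higher in shHIRA II, but few passed: of 50 tested 10 were higher and 2 lower (median 0.84). Mx2, an antiviral GTPase, stood at 18.04, 7.92, 49.3 and 8.56 CPM in shHIRA I and at 42.5, 91.8, 134 and 147 CPM in shHIRA II, with replicate 3 of shHIRA I above the lowest shHIRA II library (2.31, SE 0.57, adjusted p = 0.00769). Control hairpins, at 56.7 ± 29.4 and 61.0 ± 25.7 CPM, lay between, and parental cells were lowest, at 4.62 ± 0.628 CPM. Ifit1, which binds viral RNA, showed the same library standing apart, with 174.5 CPM in replicate 3 and 14.3 to 31.6 CPM in the other shHIRA I libraries, against 74.7 to 186 CPM in shHIRA II (1.06, SE 0.65, adjusted p = 0.263). Without replicate 3 of shHIRA I, 28 of 50 were higher and 3 lower, and the median was 1.32; leaving out any other library of either Hira hairpin left 3 to 11 higher. As medians of the list, shHIRA I lay 0.61 below the control hairpins and shHIRA II 0.09 above them, and both lay above parental cells, by 1.44 and 2.09. Trim30a (2.24) and Dtx3l (1.05) were called, as were Igtp (1.38) and Irgm1 (1.04), chosen for their promoters after their values were seen. Of 15 chemokine and cytokine genes tested 2 were higher, Ccl5 (1.48) and Cxcl10 (1.90), and 2 lower, Tgfb1 (−0.67) and Tgfb3 (−0.89), with a median of −0.33. Their shares were 13.3% each way, close to the 8.60% and 12.4% of all genes tested. Of 19 genes of MHC class I presentation 3 were higher and 0 lower (Psmb10, H2-D1 and H2-Q4, by 1.07, 1.17 and 1.05). Without replicate 3 of shHIRA I, 11 of the 19 were higher and the median moved from 0.63 to 0.83. Class I heavy chain genes are near-identical copies, so the split of reads among them is uncertain. Of 17 nucleic acid sensors and interferon signalling genes 1, Zbp1, was higher and 1, Ifnar1, a subunit of the type I interferon receptor, lower (−0.71, adjusted p = 0.00411). Without replicate 3 of shHIRA I, 5 were higher and 2 lower.

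**Figure D5:**
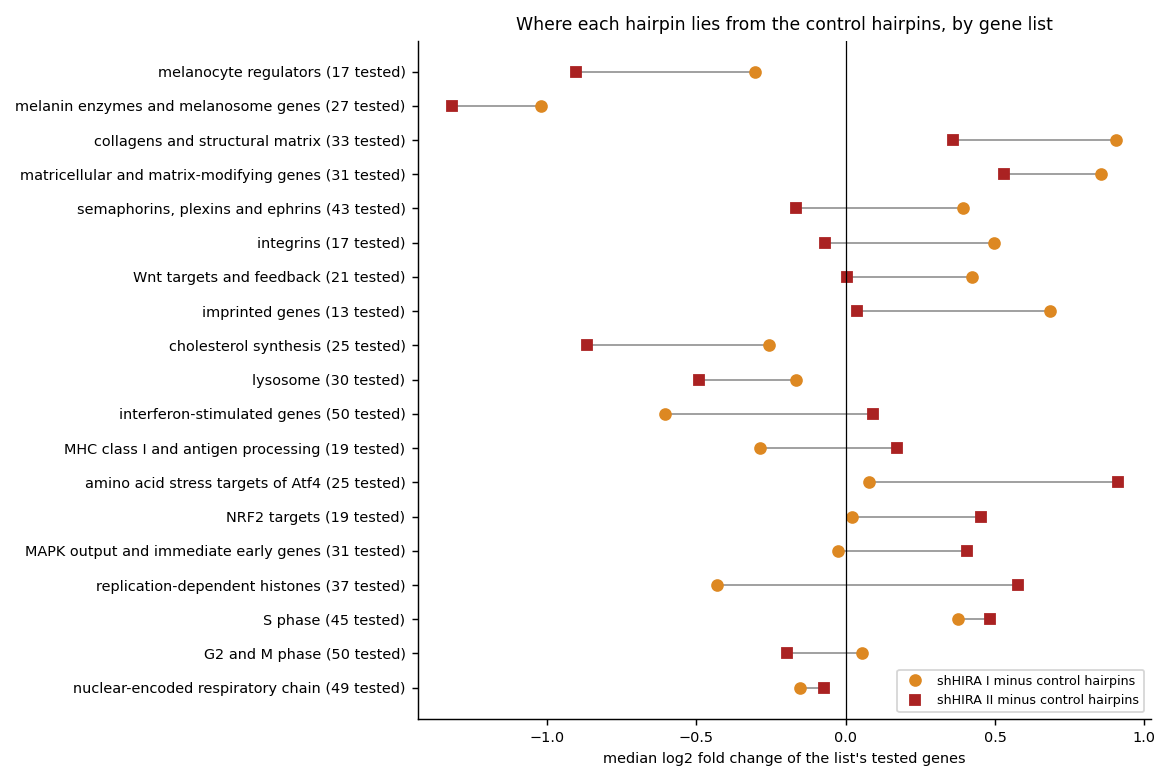
For 19 gene lists, the median log2 fold change of the tested members from the control hairpins in shHIRA I (circle) and in shHIRA II (square). Matrix lists lie to the right in shHIRA I (0.90 for collagens, against 0.36 in shHIRA II), Atf4 targets to the right in shHIRA II (0.91 against 0.08), and pigment genes to the left in both.

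Chromatin genes moved in both directions. Of 10 genes of the HIRA complex, H3.3 and partner chaperones, 3 were higher and 2 lower: besides Hira, Daxx (0.90) and the H3.3 gene H3f3b (0.72) were higher, and the H3.3 gene H3f3a (−0.39) and Cabin1 (−0.65) were lower. Neither H3f3a nor Cabin1 passed without replicate 2 or 4 of shHIRA I or replicate 1, 2 or 4 of shHIRA II. Daxx stood at 35.4 to 73.8 CPM in shHIRA I, at 83.2 to 106 CPM in shHIRA II and at 58.2 ± 9.21 and 58.1 ± 8.73 CPM in the control hairpins. Of 37 replication-dependent histone genes 9 were higher and 1 lower (median 0.86), nearly all at low levels in this poly(A) RNA, such as Hist1h1e at 0.594 to 1.23 CPM in shHIRA I and 1.88 to 3.23 CPM in shHIRA II. Fewer passed when genes needed at least 1 CPM in at least 4 libraries (5 higher), and without replicate 4 of shHIRA I (3), replicate 2 of shHIRA II (3) or replicate 3 of shHIRA II (5). Of 13 genes of the small RNA silencing machinery, through which hairpins act, Dicer1 (−1.50), Tnrc6b (−1.19) and Tnrc6c (−0.92) were lower and 0 higher. Dicer1 stood at 64.1, 58.7, 21.1 and 56.2 CPM in shHIRA I and at 16.7, 15.7, 18.1 and 20.3 CPM in shHIRA II, with control hairpins at 25.6 ± 7.98 and 23.8 ± 2.12 CPM, above shHIRA II without passing there (−0.48, adjusted p = 0.109). Ago2 differed by −0.12 (SE 0.26, adjusted p = 0.788).

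Of the proliferation genes, 0 of 45 S phase genes and 0 of 50 genes of G2 and mitosis were called by edgeR, with medians of 0.00 and −0.27. At an unadjusted p under 0.05 these counts were 3 and 0, and DESeq2 also called 0 of each. Without replicate 3 of shHIRA I, 1 S phase gene and 5 genes of G2 and mitosis were lower. Summed G2 and mitosis levels spread from 2908 to 9574 CPM in shHIRA I, against 4526 to 5383 CPM in shHIRA II. They were 2907 to 9556 CPM in shLuciferase, 4381 to 9205 CPM in shScramble and 7679 to 8489 CPM in parental cells. S phase sums were 2456 to 5869 CPM in shHIRA I and 4288 to 5493 CPM in shHIRA II. With this spread, the lack of calls does not show equal levels. Respiratory chain genes encoded in the nucleus had 2 of 49 higher and 1 lower (median 0.14), and 28 of 49 were higher without replicate 3 of shHIRA I. Of 13 mitochondrially encoded mRNAs 1 was lower (mt-Nd5, −1.22; list median −0.57), but 10 were lower without replicate 3 of shHIRA I (median −0.89), the library of lowest mitochondrial share, and 9 without the libraries of lowest share in both hairpins. Among other cells' markers, 1 of 16 Schwann cell and glial genes was lower (Ncam1, −0.99), or 3 without replicate 3 of shHIRA I, and 0 of 5 keratinocyte and epithelial genes were called (1 at an unadjusted p under 0.05, and 1 lower by DESeq2). Of 6 leukocyte markers 2 were lower, with summed levels of 16.3 to 27.8 CPM in shHIRA I and 9.75 to 11.8 CPM in shHIRA II. Of 5 neuronal markers 2 were lower and 1, Tubb3, higher (1.27, adjusted p = 0.00854). Transcript length moved with the difference over all genes: with genes split by length into 5 equal groups, the median was 0.14 in the shortest, of which 6.11% were lower, and −0.23 in the longest, of which 16.3% were lower. Between the control hairpins the same medians were 0.09 and −0.11. The part of length in these group results was not tested beyond a fit with length and GC offsets, in which 3155 genes were called. In that fit the list median moved from −0.74 to −0.51 for collagens and from −0.49 to −0.35 for melanin and melanosome genes. It moved from −0.58 to −0.39 for the insulin-like growth factor axis. The medians of cholesterol synthesis (−0.49 to −0.51) and interferon-stimulated genes (0.84 to 0.83) hardly moved.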

How the data were processed

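Poly(A) RNA of melb-a cells was sequenced from directional libraries, per the labels' protocols. The authors deposited a table of estimated counts and a table of TPM values, scaled for transcript length and library, per gene symbol. The submitters' processing notes name bcl2fastq, kallisto, edgeR and the build mm10, and versions, annotation and strand setting are not given in the sources used here. Rows numbered 29956, of which 6990 were 0 in every library. The columns headed shHIRA without a numeral were taken as shHIRA I, and those headed Ctl as parental, since every other column name matched another group. Gene coordinates are those of GENCODE M21 by symbol, and 27 rows are named by a date.

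Estimated counts were rounded, scaled by TMM and filtered by expression, which left 13541 genes. The fit was edgeR's quasi-likelihood test (edgeR 4.0.16, limma 3.58.1, R 4.3.3) with a mean for each of the 5 groups over all 20 libraries, which share 1 estimate of the spread. Contrasts were adjusted by the Benjamini-Hochberg method over all genes at 0.05, and CPM values use the TMM library sizes. DESeq2 1.42.0 was among the alternatives. Single measures were compared by exact permutation tests. On simulated counts with known changes (13293 genes), the fit recovered 12.5% of genes changed 1.5-fold, 55.1% at 2-fold, 76% at 4-fold and 90% at 8-fold, and called 0.0229% of unchanged genes. The simulation gave all groups the same spread per gene and drew each library independently. The real shHIRA I libraries were more scattered, with a mitochondrial share of 1.226 to 9.583% against 2.885 to 4.711% in shHIRA II. The simulated rates, that of false calls included, therefore need not hold for this comparison.

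The genes, the gene lists (40 lists, 1032 members, 888 tested) and the tests were chosen with earlier results of these data known, and the direction of a list is not independent evidence. Named genes were the 6 markers of the comparison, the 12 highest and 12 lowest log2 fold changes among called genes with a mean of at least 5 CPM in the shHIRA libraries and no overlap, the called members with the 5 smallest adjusted p in each list, and the first 2 members of each list. Values of some of these genes are not reported here. Promoters were matched by symbol to RefSeq, and 9704 of the genes tested had one. No per-sample column was left unused.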

Additional observations from a re-analysis of the deposited data

Results flagged for a closer look

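Among 58 sets of 4 libraries tested (26 leading genes, library total, mitochondrial share and Hira level, each in both Hira hairpins), 10 held a library whose gap to the nearest of the others was nearly the whole range of its group. The cutoff marks about 1 in 20 groups of independent, normally distributed values. That rate does not apply here, since most sets were genes chosen by this same contrast and many marks came from the same library. A gene detected in a single library of a group is marked in any case, as for Lmbrd2 and Chrnb2 below. Replicate 2 of shHIRA I accounted for 6 of them, being high for Igfbp5 (57.11 CPM, nearest 7.936), Ly6c1 (47.07, nearest 5.145), Clca2 (90.02, nearest 9.945), Ly6a (35.81, nearest 4.106), Slc5a3 (597.0, nearest 153.5) and Lmbrd2 (1.339, others 0). Replicate 4 of shHIRA I was high for Chrnb2 (2.029 CPM, others 0), replicate 3 for Angptl6 (4.31 CPM, nearest 1.412) and replicate 1 for Etv4 (21.85 CPM, nearest 4.651). Replicate 2 of shHIRA II had a low mitochondrial mRNA share of 2.885%, with the nearest library at 4.45%. The contrast of the Hira hairpins is also the difference between their shifts from the control hairpins, and by that test 2845 genes had shifts that differed.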

How the results depend on the processing

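The comparison of the Hira hairpins gave 2845 genes, and between 1997 (without replicate 1 of shHIRA II) and 4430 (without replicate 3 of shHIRA I) with 1 library left out. Tested against a fold of 1.5 the counts were 623 between the Hira hairpins, 609 and 1201 for shHIRA I and shHIRA II against the control hairpins, and 678 and 1423 against parental cells. With only the compared groups in the fit they were 1088 between the Hira hairpins, 1777 for shHIRA I against the control hairpins and 891 against parental cells. With the mitochondrial share as a covariate shHIRA II against the control hairpins gave 2767. Between the control hairpins DESeq2 gave 4 genes, the fit of those groups alone 1, and leaving out a library 0 to 1. Of the genes called between the Hira hairpins 59.1% were lower, against 72.6% beyond a fold of 1.5 and 52.5% by limma on log2(TPM + 1). The Hira TPM difference lay between 17.6 and 22.6 with a library left out, each with an exact permutation p of 0.0571, the smallest that 3 against 4 can give. Same-numbered libraries were not taken as pairs: those of shHIRA I and shHIRA II correlated at 0.0885, −0.306, −0.277 and 0.162, and in no pair of groups did every correlation exceed 0.1. Some were higher, as for shLuciferase with shHIRA I (0.364, 0.423, 0.116 and −0.0986) and replicate 1 of shScramble with shLuciferase (0.414) and shHIRA I (0.364). With the replicate number as a block the fit called 3147 between the Hira hairpins, and 2958 and 4806 for shHIRA I and shHIRA II against the control hairpins (2671 and 4394 without it). Over 216 named genes and 6901 recomputed values, 6435 kept their side of the threshold, 417 no longer passed and 49 newly passed. Of values that passed in the main or the recomputed fit, 0 changed sign. Sign changes of values that passed in neither fit were not counted. Log2 fold changes grew to 3.55 for Angptl6 and 3.16 for Mx2 without replicate 3 of shHIRA I, to 3.82 for Car6 without its replicate 4, to 3.72 for Etv4 without its replicate 1, and to −5.52 for Rprd2 without replicate 2 of shHIRA II. Besides the genes named as such in the report, Atf6, Ccnd3, Cdkn2c, H2-Q4, Hspa5, Sesn2, Spp1, Tagln, Tnrc6b and Zyx no longer passed when at least 1 Hira hairpin library was left out. Depth, at 14.95 M counts or more a library, limits genes near 1 CPM, and the cause of each shift in counts was not tested.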

Other observations

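Of 29 glycolysis and hypoxia genes 3 were higher in shHIRA II and 3 lower (10.3% each, against 8.60% and 12.4% of all genes tested; median 0.01; 5 higher without replicate 3 of shHIRA I), a share near the background, and the genes below are given as single genes. Pgam1, a glycolytic mutase, stood at 254, 273, 392 and 250.3 CPM in shHIRA I and at 819, 1012, 864 and 856 CPM in shHIRA II (log2 fold change 1.60, adjusted p = 4.14e-06 by edgeR). Gpi1, the isomerase that follows hexokinase, stood at 184, 211, 207 and 209 CPM in shHIRA I and at 328, 414, 442 and 446 CPM in shHIRA II (1.01, adjusted p = 6.24e-05). For both, shHIRA I was below the control hairpins (−1.41 and −1.18, both called), and shHIRA II did not differ detectably from them. Ndrg1, a gene induced by hypoxia, was lower in shHIRA II (−1.75) and below the control hairpins in both.

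Genes of the TGF-beta response went both ways, 3 of 19 higher and 5 lower. Tgfbr2, the type II receptor, stood at 268.5, 398, 246 and 392 CPM in shHIRA I and at 81.8, 117, 163 and 121 CPM in shHIRA II (−1.43, adjusted p = 0.000154 by edgeR), with control hairpin means of 347 and 362 CPM. Skil, a nuclear brake on SMAD signalling that TGF-beta also induces, was higher (1.78), with control levels that did not differ detectably from shHIRA I. Of 26 p53 targets 2 were higher and 4 lower (7.69% and 15.4%), shares near the 8.60% and 12.4% of all genes tested. As a single gene, Btg2 was lower (−1.42). It was above the control hairpins in both Hira hairpins, by 3.26 in shHIRA I and 1.84 in shHIRA II. Of 23 YAP and contractile genes, 3 were lower (13.0%) and 1, Tagln, was higher (4.35%, log2 fold change 1.11), shares near or below those of all genes tested. Among the lower genes, the actin crosslinker Flna (−1.06) and Zyx (−0.88) were above the control hairpins in shHIRA I. Of 11 CDK inhibitors and D cyclins, Ccnd1 and Ccnd2 were higher and Cdkn2b, Cdkn2c and Ccnd3 lower.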
